A study of Mus musculus with 61 samples.

Results

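The 9 genes described here build, divide or survey the mitochondrial network: the fusion GTPases Mfn1, Mfn2 and Opa1, the fission GTPase Dnm1l, its outer-membrane receptors Fis1, Mff, Mief1 and Mief2, and the kinase Pink1. They were taken by gene symbol from the table of 19462 genes, and all 9 passed the filter on low counts that left 16682 genes for testing. RNA was from skeletal muscle of the 8 inbred founder strains of the Diversity Outbred mouse population, with 7 libraries each of Cast, PWK and NOD and 8 each of WSB, NZO, AJ, 129 and B6. Cast, PWK and WSB are wild-derived, NZO is an obese strain, NOD is prone to autoimmune diabetes, and AJ, 129 and B6 are standard laboratory strains. All 61 libraries carried the same diet label, 45% fat, from a high-fat, high-sugar diet, so every strain was on this diet and no strain served as a control. Each strain was therefore set against the other 7, whose means had equal weight. Sex, age, the muscle dissected and any batch are not given in the labels, and nothing in them ties each library to an animal of its own. P-values therefore measure only the spread between these libraries, which may be technical.

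Mitochondria in a muscle fibre fuse and divide continuously. Mfn1 and Mfn2, the mitofusins, join outer membranes of neighbouring mitochondria, and Mfn2 also sits at contacts with the endoplasmic reticulum. Opa1 joins the inner membranes and shapes the cristae. Dnm1l encodes Drp1, a dynamin-like GTPase that is drawn from the cytosol to the outer membrane, where it assembles and constricts the organelle. Mff, Mief1 (MiD51) and Mief2 (MiD49) are tail- or membrane-anchored receptors for Drp1, and Fis1 is an outer-membrane adaptor whose yeast counterpart is essential for fission. Pink1 is a kinase that gathers on damaged mitochondria and marks them for removal by autophagy (mitophagy). Loss of Mfn2, Opa1 or Drp1 from mouse muscle is known to disturb mitochondrial shape and muscle mass.

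The libraries held 17057111 to 65153255 estimated counts (median 33744449), and the lowest count of any of the 9 genes in any library was 284. For the scarcer of the 9 genes, noise of counting is part of the spread between libraries. All 10 skeletal muscle markers were detected in all 61 libraries, Acta1 (skeletal actin) at 17200 CPM or more (CPM are counts scaled to a common library total). In 1 B6 library, number 5, a single gene took 46.3% of all counts, against at most 9.76% in every other library. Transcripts of brown adipocytes, a heat-producing fat cell, varied with strain: the summed level of 7 markers had a median of 102 CPM in WSB (16.2 to 446) and 81.4 CPM in Cast (26.1 to 185), while in each of the other 6 strains the median was between 12.8 and 19.3 CPM. Ucp1, the defining marker, was at 0 in 14 libraries and reached 360 CPM in the highest, and Lhx8 was at 0 in 19. Each strain held libraries in which Xist, a female transcript, exceeded Ddx3y, a male one, and libraries in which it did not (31 of 61 libraries in all), so the spread within a strain can include sex. Cast libraries 1, 5 and 6 stood apart from all others in genes of autophagy, with 422 to 716 CPM of Gabarapl1 against 32.9 to 158 CPM in the other 58 libraries, and Cast values of the 9 genes are given with and without them.

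Promoters are shown for 4 genes that differed between strains (Mief1, Mief2, Mfn1, Pink1) and for 1 that did not pass (Opa1), with the recognition letters of factors known for mitochondrial genes. RefSeq windows on GRCm38.p6, from 250 bases before to 50 bases after each start, were searched on both strands for CCGGAAGT, a site of the ETS family to which Gabpa (NRF-2) belongs, for the core of the NRF1 site (GCGC on each side of 2 bases of any kind), and for AAGGTCA, the site of estrogen-related receptors such as Esrra. Below are the 250 bases before the start, 5′ to 3′ on the gene's strand, with matches in capitals. They are from chr15:80233830-80234079 (plus strand) for Mief1, chr11:60728148-60728397 (plus) for Mief2, chr3:32529232-32529481 (plus) for Mfn1, chr16:29579084-29579333 (plus) for Opa1 and chr4:138326297-138326546 (minus) for Pink1.
Mief1: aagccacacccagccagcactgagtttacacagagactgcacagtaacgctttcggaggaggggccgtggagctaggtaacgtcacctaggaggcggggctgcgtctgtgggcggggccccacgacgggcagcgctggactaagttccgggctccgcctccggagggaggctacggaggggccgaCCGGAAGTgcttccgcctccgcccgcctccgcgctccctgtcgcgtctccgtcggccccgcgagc
Mief2: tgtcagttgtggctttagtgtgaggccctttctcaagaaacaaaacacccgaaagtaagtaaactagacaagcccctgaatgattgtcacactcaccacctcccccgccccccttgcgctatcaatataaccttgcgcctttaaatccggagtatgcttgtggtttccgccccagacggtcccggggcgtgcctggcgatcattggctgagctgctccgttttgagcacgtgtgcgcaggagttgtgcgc
Mfn1: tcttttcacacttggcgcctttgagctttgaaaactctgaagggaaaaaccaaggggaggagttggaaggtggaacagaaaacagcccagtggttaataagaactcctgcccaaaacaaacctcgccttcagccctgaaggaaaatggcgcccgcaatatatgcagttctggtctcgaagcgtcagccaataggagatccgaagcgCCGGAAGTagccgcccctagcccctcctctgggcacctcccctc
Opa1: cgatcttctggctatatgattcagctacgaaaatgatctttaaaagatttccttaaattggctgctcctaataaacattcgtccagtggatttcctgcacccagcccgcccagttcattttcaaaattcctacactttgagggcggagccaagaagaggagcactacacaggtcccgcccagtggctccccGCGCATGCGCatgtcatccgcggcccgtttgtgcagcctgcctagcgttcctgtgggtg
Pink1: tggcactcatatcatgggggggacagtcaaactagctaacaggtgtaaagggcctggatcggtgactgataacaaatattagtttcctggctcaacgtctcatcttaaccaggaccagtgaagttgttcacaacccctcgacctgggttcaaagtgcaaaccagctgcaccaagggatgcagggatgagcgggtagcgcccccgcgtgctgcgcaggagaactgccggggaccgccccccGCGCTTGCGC

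All 9 genes had at least 1 such window, 14 in all. The ETS letters stood in 4 of the 14 windows, from 3 genes: Mfn1, Fis1 and Mief1. Mief1 held them at 2 places, 65 bases before and 11 bases after the start, the latter beyond the sequence shown. Its paralog Mief2 held none. The NRF1 letters stood in 2 of the 14 windows, those of Opa1 and Pink1, 59 and 10 bases before the start. The estrogen-related receptor letters stood in no window. Of 32851 mouse windows, 3.89%, 6.22% and 4.72% held the ETS, NRF1 and receptor letters, in that order, and of the 15529 windows of measured genes 6.66%, 11.2% and 3.50%. These matches describe the C57BL/6J reference and say nothing of the sequence in the other 7 strains or of a factor's binding.

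The strains differed in 7 of the 9 genes and by small amounts. The 7 were both mitofusins, the 4 Drp1 receptors and Pink1, while Opa1 and Dnm1l, the inner-membrane fusion GTPase and the fission GTPase, did not pass the test (edgeR's quasi-likelihood F test over the 8 strains, adjusted p = 0.232 and 0.19). A difference over all strains was common, with 85.5% of all genes passing, so 7 of 9 is no more than the background. The distance from the highest to the lowest strain ran from 0.19 (Opa1) to 0.82 (Mief2) on the log2 scale, below the median of 0.91 over all genes tested for each of the 9. Opa1 and Dnm1l spanned 0.19 and 0.20, less than all but 1.28% and 1.43% of genes. Differences between strains made up 79.2% of the variance (log2 CPM) in Pink1, 64.9% in Mief2, 63.5% in Mief1 and 62.4% in Mfn1, against 16.9% in Opa1 and 16.5% in Dnm1l, beside a median of 45.4% over all genes. In bulk muscle, fewer cells that express a gene and less RNA per cell cannot be told apart.

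Per kilobase of exon, Pink1 was the most abundant of the 9, at 168 CPM per kb averaged over strains, followed by Mfn2 at 105. Mfn1 had 29.6, Fis1 27.5, Mief2 21.1 and Opa1 19.0 CPM per kb. Dnm1l came next, before Mff. Mff had 7.62 and Mief1, the scarcest, 3.43 CPM per kb. On this scale the transcript of the mitofusin Mfn2 exceeded that of Mfn1 and that of the receptor Mief2 exceeded that of Mief1. Isoforms of different length would shift these values. All levels that follow are CPM and are compared only within a gene.

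**Figure D1:**
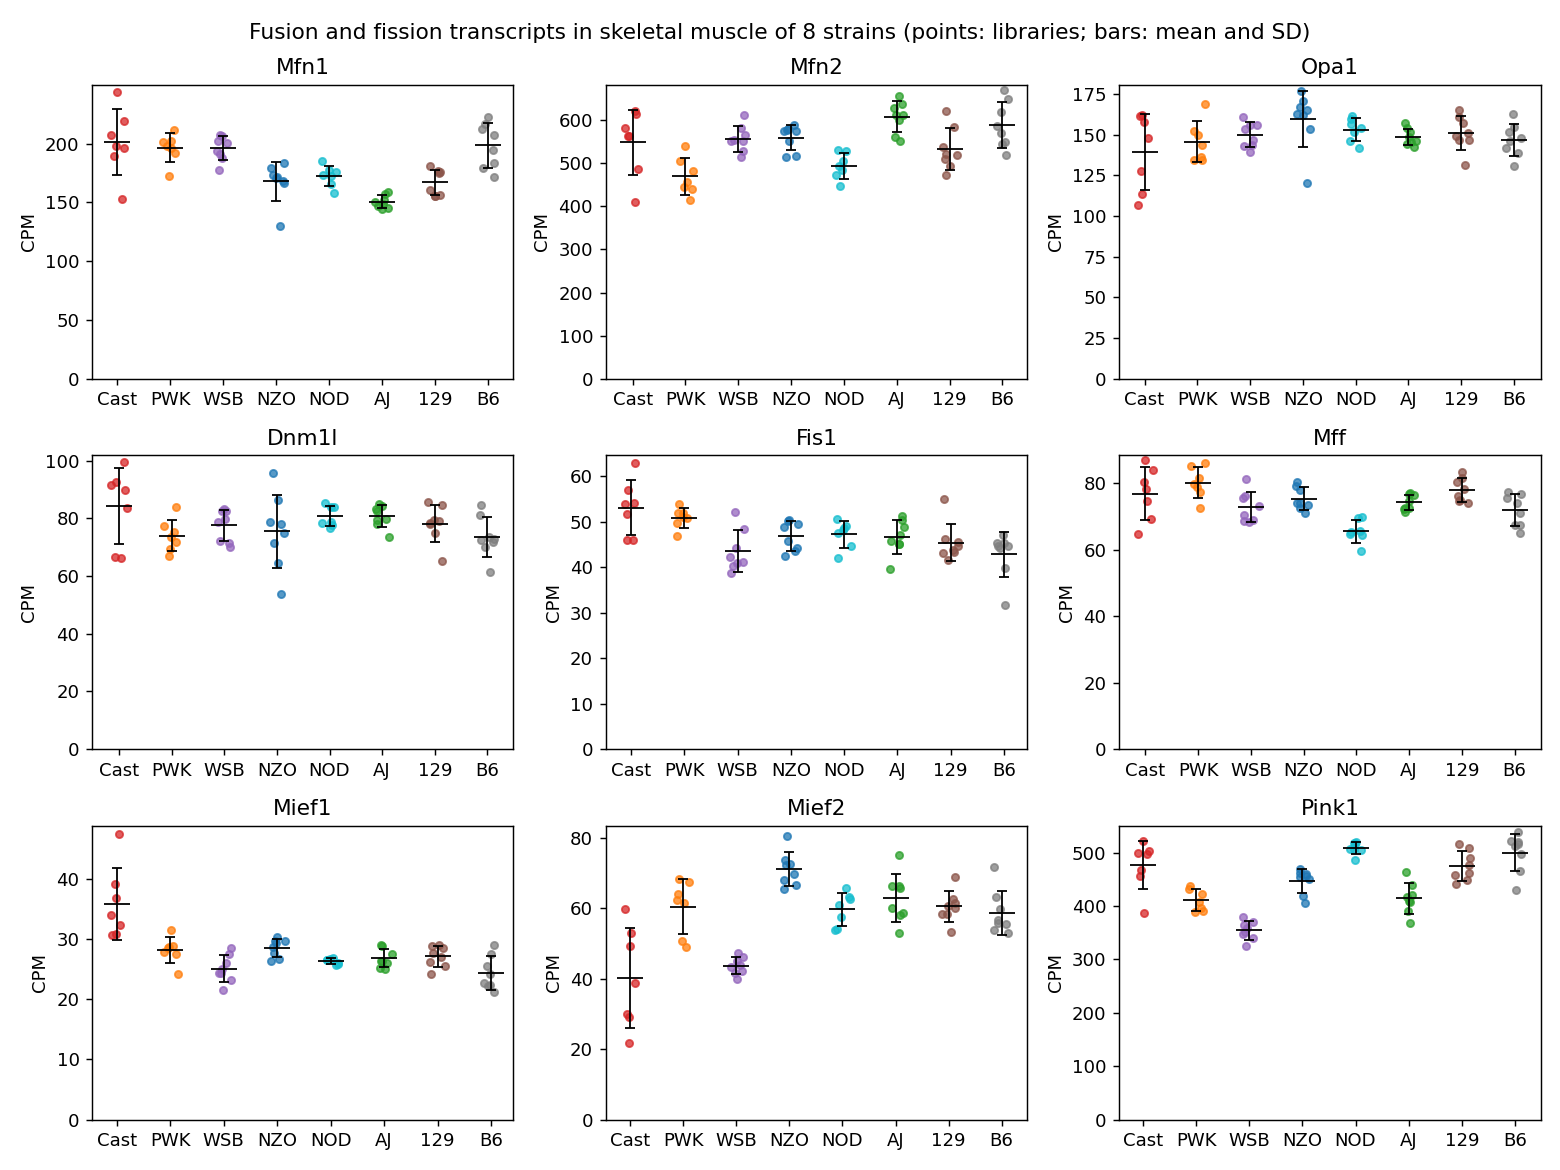
Level of each gene in CPM (y axes, linear, from 0) in every library of the 8 strains (x axes), with the strain mean and SD. The Pink1 points of WSB, the Mief1 points of Cast and the low Mief2 points of Cast and WSB stand apart, whereas the strains overlap for Opa1 and Dnm1l.

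Mfn1 (3:32529465-32579239, plus strand, GRCm38) was highest in Cast and lowest in AJ, with a fold of 1.34 between their means. It averaged 201 ± 28.02 CPM in Cast, 198 ± 18.9 in B6, 196 ± 12.3 in PWK, 196 ± 10.3 in WSB, 173 ± 8.68 in NOD, 168 ± 16.4 in NZO, 167 ± 10.9 in 129 and 150.4 ± 5.36 in AJ (SD; here and below n = 7 for Cast, PWK and NOD and n = 8 for the other strains). Of the steps in this order, only that from WSB to NOD passed between neighbours (0.18 log2, adjusted p = 0.0212, edgeR). The 4 strains below this step were not alike, as NOD exceeded AJ by 0.20 log2 in the direct comparison (adjusted p = 0.0198, edgeR). The step from WSB to NOD no longer passed without NOD library 4 or 5 or WSB library 1 (adjusted p up to 0.0625). The 8 AJ libraries lay between 144 and 159 CPM (median 149.6), all below the median of the other strains. AJ differed from the mean of the other 7 by -0.30 ± 0.05 log2 (SE; adjusted p = 1e-06). Cast (153 to 244 CPM, median 198) was 0.18 ± 0.05 log2 above (adjusted p = 0.00102), with 6 of 7 libraries over the median of the others, and 1, number 1, over every other library. Without Cast libraries 1, 5 and 6 the Cast difference was 0.13 log2 and did not pass (adjusted p = 0.069, edgeR). Cast then averaged 194.3 ± 29 CPM (n = 4), below B6, PWK and WSB.

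Mfn2 (4:147873599-147904704, minus strand) put the same strains in another order. It averaged 608 ± 35.9 CPM in AJ, 588 ± 53.0 in B6, 559.8 ± 29.1 in NZO, 558 ± 30.1 in WSB, 549 ± 75.2 in Cast, 533 ± 48.7 in 129, 495 ± 30.1 in NOD and 469.5 ± 43.3 in PWK. Without libraries 1, 5 and 6 Cast averaged 552.8 ± 97.8 CPM (n = 4). No step between neighbouring strains passed the test, but the ends did not overlap: AJ libraries lay between 552 and 657 CPM and PWK libraries between 414 and 541. AJ was 0.19 ± 0.05 log2 above the mean of the other 7 (adjusted p = 0.00125) and PWK differed from it by -0.24 ± 0.05 log2 (adjusted p = 9.45e-05). AJ thus had the lowest Mfn1 and the highest Mfn2, and PWK the lowest Mfn2 with Mfn1 above the mean of the other 7.

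The balance of the mitofusins differed between these strains more than either gene did. Within each library, the log2 of Mfn1 over Mfn2 averaged -1.26 ± 0.07 (SD) in PWK, between -1.74 and -1.45 in NZO, 129, B6, NOD, WSB and Cast, and -2.01 ± 0.08 in AJ. Of 7 PWK libraries, 4 had a ratio above that of every library of another strain, and 4 of 8 AJ libraries had one below. Strain accounted for 86.3% of the variance of this ratio, and the strain means spanned 0.76 log2. The ratio was formed after the levels of both genes were known and is given without a test.

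**Figure D2:**
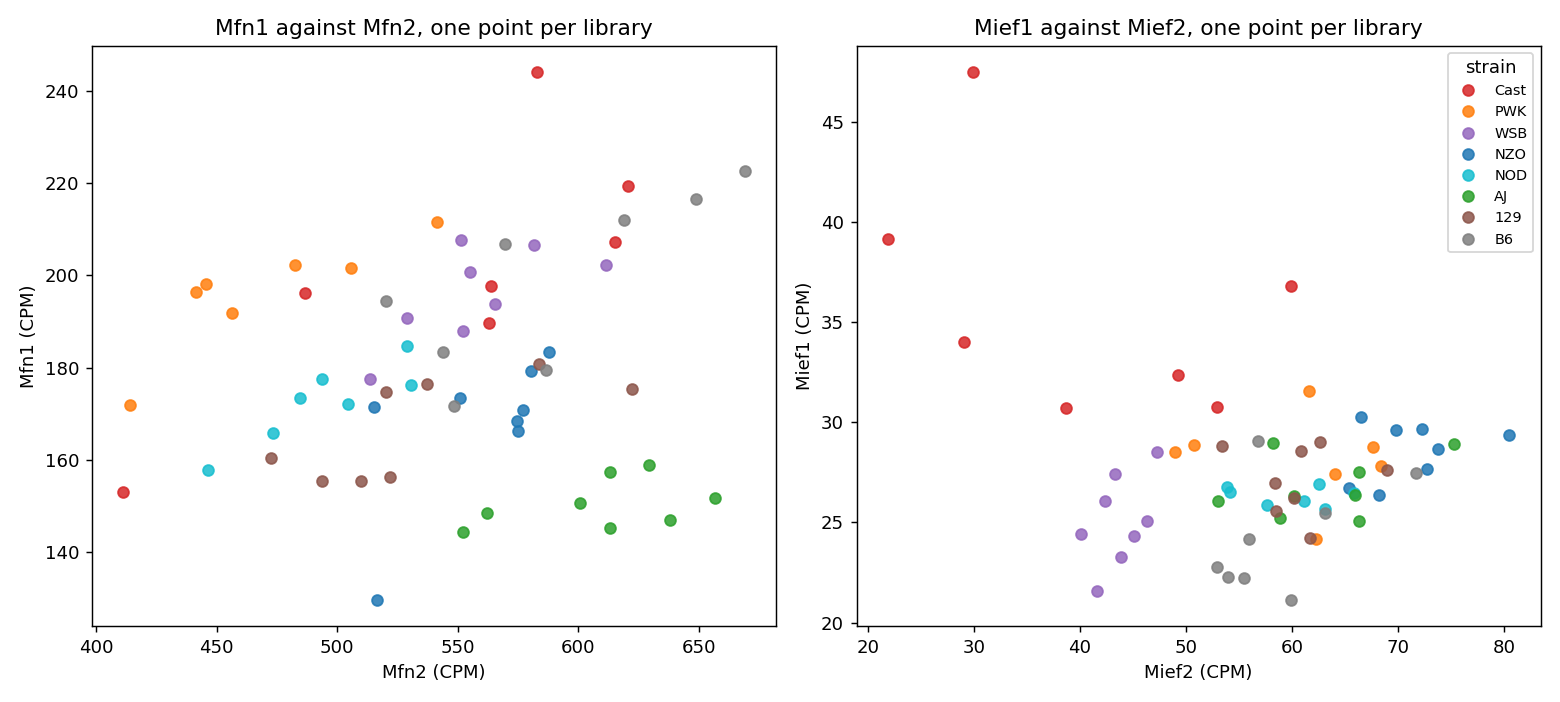
Paralogs against each other in CPM, one point per library coloured by strain. Mfn1 against Mfn2 puts AJ (low Mfn1, high Mfn2) and PWK (low Mfn2) at opposite edges, and Mief1 against Mief2 puts 5 of the 7 Cast libraries apart from all other strains by their ratio, while the other 2 lie near the edge of the rest.

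Opa1 (16:29579334-29654884, plus strand) varied little. Its strain means lay between 139.5 ± 23.4 CPM in Cast and 159.7 ± 17.3 CPM in NZO, with NOD at 153 ± 7.09, 129 at 151 ± 10.5, WSB at 149.9 ± 7.69, AJ at 149 ± 5.06, B6 at 147 ± 9.95 and PWK at 146 ± 12.6. No strain passed against the other 7, but NZO did with the slow-to-fast fibre ratio as a covariate (0.15 log2, adjusted p = 0.0406, edgeR) and Cast when only genes of at least 5 CPM were tested (-0.13 log2, adjusted p = 0.0179). In the direct comparison of the extremes, Cast against NZO gave -0.19 log2 (adjusted p = 0.0123, edgeR), the 1 of 28 strain pairs that passed. This pair holds the lowest and the highest mean, and the adjustment covers neither that choice nor the 28 pairs. The difference rested on Cast libraries 1, 5 and 6. Without them Cast averaged 152.2 ± 16.4 CPM (n = 4), and the difference from NZO was -0.07 log2 (adjusted p = 0.411). Without NZO library 8, at 120 CPM the lowest of its strain, the span was 0.24 log2 and the test over the 8 strains passed (adjusted p = 0.0325). Within Cast the libraries ranged from 107 to 162 CPM, and 2 of the 7 were lower than any library from another strain.

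Dnm1l (16:16312235-16359030, minus strand) was similarly even, from 73.5 ± 6.97 CPM in B6 to 84.3 ± 13.1 CPM in Cast. PWK had 74.1 ± 5.51, NZO 75.5 ± 12.8, WSB 77.6 ± 5.48, 129 78.2 ± 6.32, AJ 80.7 ± 3.81 and NOD 80.7 ± 3.53 CPM. Against the other 7, Cast had the largest difference, 0.13 ± 0.06 log2 (adjusted p = 0.0561). This value passed the threshold under 8 of the alternatives other than the leaving out of 1 library, with adjusted p-values down to 0.00581. Without Cast libraries 1, 5 and 6 Cast was 0.18 log2 above (adjusted p = 0.0413). Of 28 strain pairs, Cast over PWK (0.19 log2) and Cast over B6 (0.20 log2) passed. An antisense gene overlaps 243 exonic bases of Dnm1l, and whether counting used strand is not given in the sources used here.

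Fis1 (5:136953275-136966234, plus strand) was highest in the wild-derived Cast and PWK and lowest in B6 and the wild-derived WSB. It averaged 53.1 ± 6.03 CPM in Cast, 50.9 ± 2.14 in PWK, 47.2 ± 2.90 in NOD, 46.9 ± 3.20 in NZO, 46.7 ± 3.70 in AJ, 45.4 ± 4.11 in 129, 43.5 ± 4.58 in WSB and 42.9 ± 4.99 in B6. All 7 Cast and all 7 PWK libraries lay over the median of their other strains, and Cast was 0.20 ± 0.05 log2 above the mean of the other 7 (adjusted p = 0.000601; 0.18 log2 and 0.0214 without Cast libraries 1, 5 and 6). B6 differed from it by -0.15 ± 0.05 log2 (adjusted p = 0.0215), but without B6 library 5 the difference was -0.10 log2 with an adjusted p of 0.149. Neighbours in this order did not differ beyond their spread.

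Mff (1:82724890-82752394, plus strand) was high in PWK and low in NOD. It averaged 80.2 ± 4.68 CPM in PWK, 78.0 ± 3.53 in 129, 76.9 ± 7.92 in Cast, 75.4 ± 3.39 in NZO, 74.2 ± 2.30 in AJ, 72.8 ± 4.61 in WSB, 71.9 ± 4.81 in B6 and 65.6 ± 3.47 in NOD. Cast did not pass, but did without libraries 1, 5 and 6, at 82.36 ± 3.93 CPM (n = 4; 0.16 log2 above the other 7, adjusted p = 0.0016, edgeR). PWK libraries (72.4 to 85.9 CPM, median 79.8) and NOD libraries (59.6 to 69.8 CPM, median 65.5) did not overlap, and 2 NOD libraries lay below every library of another strain. NOD differed from the mean of the other 7 by -0.20 ± 0.04 log2 (adjusted p = 3.48e-05), and PWK was 0.13 ± 0.04 log2 above it (adjusted p = 0.00415). Only 16.4% of Mff values were whole numbers, against 100% for each of the other 8 genes, and the reason is not given in the files. The gene Gm28941 lies on the same strand within Mff and shares no exonic base with it, and C430014B12Rik overlaps 195 exonic bases of Mff on the opposite strand. The median level of C430014B12Rik was 0.102 CPM.

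Mief1 and Mief2, which encode the receptors MiD51 and MiD49, moved in opposite directions in Cast and had the widest spans of the 9 genes. Without Cast libraries 1, 5 and 6 the span of Mief1 was 0.43 log2, below that of Pink1 (0.52 log2). Mief1 (15:80234080-80253366, plus strand) averaged 35.9 ± 5.98 CPM in Cast, 28.5 ± 1.46 in NZO, 28.2 ± 2.20 in PWK, 27.1 ± 1.71 in 129, 26.8 ± 1.51 in AJ, 26.3 ± 0.468 in NOD, 25.1 ± 2.23 in WSB and 24.3 ± 2.80 in B6. The Cast libraries held 30.7 to 47.5 CPM (median 34.0), and 5 of the 7 lay above all 54 libraries of the other strains. Cast was 0.43 ± 0.05 log2 above the mean of the other 7, or 35% higher (adjusted p = 6.19e-11), and without Cast libraries 1, 5 and 6 it was 0.30 log2 above (adjusted p = 1.16e-05). Of the steps in this order, Cast over NZO (0.33 log2, adjusted p = 2.86e-05; 0.19 log2 and 0.0145 without those 3 libraries) was the only one to pass. Mief1 shares 213 bases with AC140267.1, a protein-coding model on the same strand.

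Mief2 (11:60728398-60732951, plus strand) was highest in NZO and lowest in Cast and WSB. It averaged 71.2 ± 4.83 CPM in NZO, 63.0 ± 6.86 in AJ, 60.5 ± 4.42 in 129, 60.5 ± 7.74 in PWK, 59.8 ± 4.64 in NOD, 58.7 ± 6.17 in B6, 43.7 ± 2.42 in WSB and 40.2 ± 14.1 in Cast. Against the mean of the other 7, Cast was at -0.56 ± 0.09 log2 (adjusted p = 3.32e-07), WSB at -0.42 ± 0.08 log2 (adjusted p = 4.91e-05) and NZO at 0.39 ± 0.08 log2 (adjusted p = 9.34e-05). The step from B6 to WSB passed between neighbours (0.42 log2, adjusted p = 0.00142), with Cast below WSB in this order. WSB libraries were tight, at 40.1 to 47.3 CPM (median 43.6). Cast libraries were not, at 21.9 to 59.9 CPM (median 38.7), and 4 of the 7 were lower than any library from another strain. Without Cast libraries 1, 5 and 6, the lowest of the strain, Cast was at -0.24 log2 (adjusted p = 0.00817). Cast then averaged 50.17 ± 8.84 CPM (n = 4), above WSB, which became the lowest strain. Cast minus WSB was then 0.20 log2 and did not pass (adjusted p = 0.0672, edgeR). NZO libraries, at 65.4 to 80.5 CPM (median 71.0), did not overlap with those of Cast.

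The log2 of Mief1 over Mief2 within a library averaged -0.10 ± 0.67 (SD) in Cast, -0.81 ± 0.12 in WSB and between -1.32 and -1.10 in the other 6 strains. In Cast it ran from -0.78 to 0.84, and 5 of 7 Cast libraries had a ratio above that of all libraries of the other strains. The strain means of this ratio spanned 1.22 log2, more than those of Opa1 over Dnm1l (0.37), Fis1 over Mff (0.31), Mfn2 over Dnm1l (0.39), Pink1 over Mfn2 (0.69) and Mfn1 over Mfn2 (0.76). Without Cast libraries 1, 5 and 6, the Mief1 over Mief2 ratio of Cast averaged -0.61 ± 0.20 (SD, n = 4) and the span was 0.71 log2, below that of Mfn1 over Mfn2.

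Pink1 (4:138313409-138326307, minus strand), the mitophagy kinase, was the gene of the 9 most firmly tied to strain (F = 25.5, adjusted p = 3.1e-14). It averaged 508 ± 11.8 CPM in NOD, 500.1 ± 35.4 in B6, 476 ± 44.9 in Cast, 475 ± 27.5 in 129, 447 ± 22.8 in NZO, 415 ± 28.9 in AJ, 411 ± 20.3 in PWK and 354 ± 17.2 in WSB. The 8 WSB libraries lay between 325 and 379 CPM (median 355), and 6 of them lay below every other library. WSB fell by 0.38 ± 0.04 log2, or by 23%, against the mean of the other 7 (adjusted p = 1.88e-12). NOD libraries (485 to 520 CPM, median 507) were 0.22 ± 0.04 log2 above the mean of the other 7 (adjusted p = 8.28e-06) and B6 0.19 ± 0.04 log2 above (adjusted p = 2.7e-05). Cast was 0.11 log2 above (adjusted p = 0.0108), and without Cast libraries 1, 5 and 6 the value was 0.09 log2 and did not pass (adjusted p = 0.152). Only the step from PWK to WSB passed between neighbours (0.21 log2, adjusted p = 0.000372). Small RNA genes annotated within Pink1 share 69 and 110 of its exonic bases.

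Low Mief2 and low Pink1 in WSB stood beside high markers of other cells in that strain. WSB had the highest median sum of brown adipocyte markers (102 CPM), of white adipocyte markers (690 CPM, against 227 to 573 CPM in the other strains) and of lymphocyte markers (187 CPM, against 19.9 to 101 CPM). Hepatocyte markers had a median of 956 CPM in WSB and 271 to 1020 CPM in the other strains, and reached 6580 CPM in 1 Cast library. Of the 8 WSB libraries 7, of the Cast libraries 4 and of the PWK libraries 2 had a brown adipocyte sum over 3 scaled median absolute deviations above the median of all libraries. No library was over this limit in the hepatocyte or lymphocyte sum, and the white adipocyte sum was not held to it. Library 4, the WSB library below the brown adipocyte limit, had 379 CPM of Pink1, the highest of its strain (median 355). Its Mief2 was 43.3 CPM, within the strain's range of 40.1 to 47.3. Without these 13 libraries, WSB was represented by 1 library, its differences from the others were -0.47 log2 for Mief2 and -0.29 log2 for Pink1 (adjusted p = 0.139 and 0.0698), and none of the 5 WSB calls passed. Genes differing in WSB then numbered 889 in all, in place of 6391. That lone library is assumed to vary like the rest. In Cast, 3 libraries remained and all 5 calls held, with Mief2 at -0.33 log2 (adjusted p = 0.0108). With the brown adipocyte, hepatocyte and lymphocyte sums as covariates, Mief2 in WSB was at -0.24 log2 (adjusted p = 0.218) and Pink1 at -0.27 log2 (adjusted p = 0.00023), by edgeR. Genes differing in WSB then numbered 2812. Within strains, the correlation with the brown adipocyte sum over the 61 libraries was r = -0.25 for Mief2 and r = -0.26 for Pink1, and that with the lymphocyte sum was -0.14 for Mief2 and -0.39 for Pink1. The part of other cells in these differences was not tested.

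**Figure D3:**
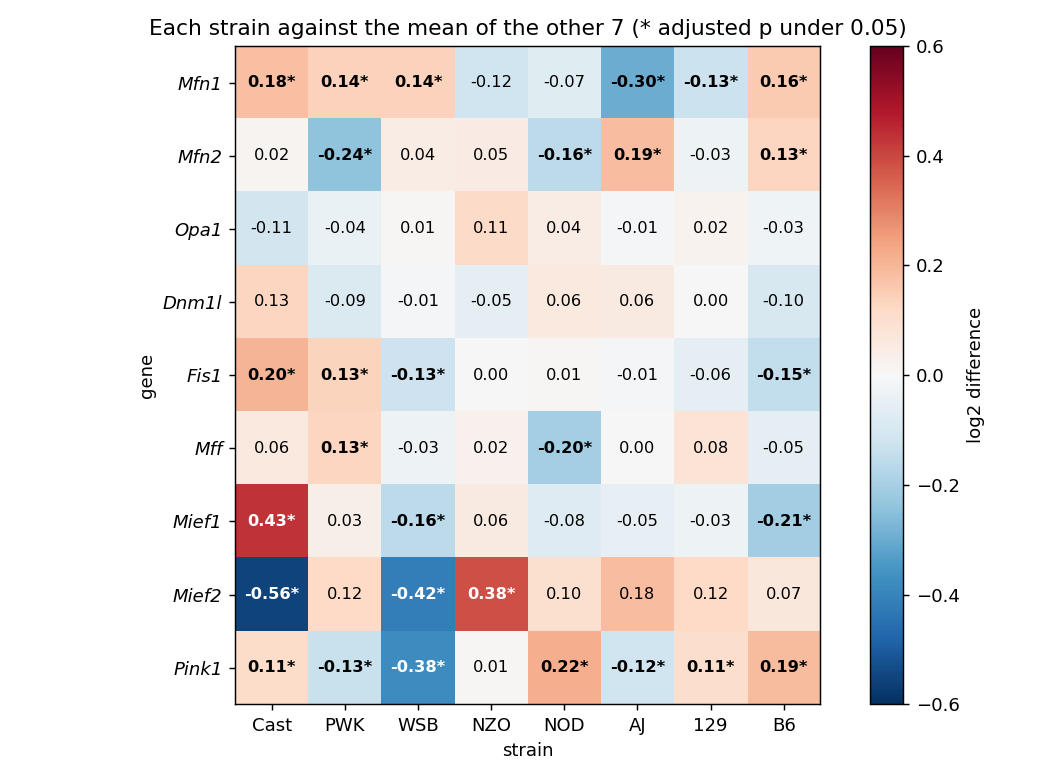
Difference of each strain (columns) from the mean of the other 7, in log2, for each gene (rows), with red for higher and blue for lower and an asterisk for an adjusted p under 0.05. Cast, PWK, WSB and B6 have 5 marked genes each, NZO 1, and the rows of Opa1 and Dnm1l none.

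Strain by strain, 29 of 72 comparisons passed, 15 higher and 14 lower, beside 34.2% of gene and strain combinations over all genes. In Cast 5 of the 9 genes passed, with Mfn1, Fis1, Mief1 and Pink1 higher and Mief2 lower, where 61.8% of all genes passed. PWK also had 5, with Mfn1, Fis1 and Mff higher and Mfn2 and Pink1 lower (41% of all genes). WSB had 5, Mfn1 higher and Fis1, Mief1, Mief2 and Pink1 lower (38.3%). B6 had 5, with Mfn1, Mfn2 and Pink1 higher and Fis1 and Mief1 lower (26.2%). AJ had 3, Mfn2 higher and Mfn1 and Pink1 lower (31.7%), and NOD had 3, Pink1 higher and Mfn2 and Mff lower (21.6%, with 11.9% higher and 9.79% lower). In 129, Pink1 was higher and Mfn1 lower (25.6%), and in NZO Mief2 alone was higher (27.3%). Mfn1 in NZO fell just short of passing, at -0.12 log2 (adjusted p = 0.0505, edgeR). Each strain also enters the mean that the other strains are set against, so these comparisons share libraries.

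Of these 29 calls, 10 no longer passed when 1 library was left out. Mfn1 in 129 was lost without 129 library 1, 2, 4 or 8, NOD 5 or PWK 6 (adjusted p up to 0.0981), and Mfn1 in PWK without PWK 4 (0.0563). Mfn2 in NOD was lost without NOD 3, 4 or 5 (up to 0.0788) and Mfn2 in B6 without B6 3, 7 or 8 (up to 0.12). Fis1 in PWK was lost without PWK 2, 3, 4 or 9 (up to 0.0894), Fis1 in WSB without WSB 1, 3, 4, 7, 8 or 9 (up to 0.124), and Fis1 in B6 without B6 5 or 6 (up to 0.149). Pink1 in Cast was lost without Cast 2, PWK 1, PWK 6 or NOD 5 (up to 0.0654), in 129 without 129 2, 3 or 6 (up to 0.0886) and in AJ without AJ 2 (0.0501). The calls for Mff, Mief1 and Mief2 and those for Mfn1 in AJ and Pink1 in WSB, NOD and B6 were not among them.

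In WSB and B6 the fusion genes that passed were higher (Mfn1 in WSB, Mfn1 and Mfn2 in B6) while the Drp1 receptors that passed were lower. The difference of these strains from the others in this respect was not tested, and the calls of Fis1 in both and of Mfn2 in B6 were lost without single libraries. Mfn1 and Mfn2 were both higher in B6, and in AJ and PWK they passed in opposite directions. The fission receptors passed in the same direction in WSB (Fis1, Mief1, Mief2 lower), B6 (Fis1, Mief1 lower) and PWK (Fis1, Mff higher), and in opposite directions in Cast. Between strains next to each other in level, 4 of 63 comparisons passed, against 7.6% of such comparisons over all genes. The remaining 59 neighbours did not differ detectably from each other.

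Correlations across libraries of the same strain differed for several pairs from those across strain means. After each strain's mean was taken off, Mfn1 and Mfn2 had a Pearson r of 0.73 over 61 libraries, whereas their 8 strain means had r = -0.31. Within strains Opa1 went with Dnm1l (0.69), Mfn2 (0.66), Mff (0.65), Mfn1 (0.63) and Mief2 (0.62). Over the 8 strain means Opa1 had r = -0.36 with Dnm1l and 0.73 with Mief2. Fis1 and Mief1 were nearly unrelated to Opa1 within strains (-0.05 and -0.03). Fis1 and Mief1 had r = 0.88 over the 8 strain means and -0.12 within strains. The points share library size, TMM scaling and muscle composition, and the values are descriptions. Within strains, the summed level of 6 macrophage markers ran against Mfn2 (r = -0.56), Opa1 (-0.49), Mff (-0.44) and Mfn1 (-0.42). Its strain medians lay between 74.3 CPM (129) and 178 CPM (AJ), and its part in these values was not tested.

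**Figure D4:**
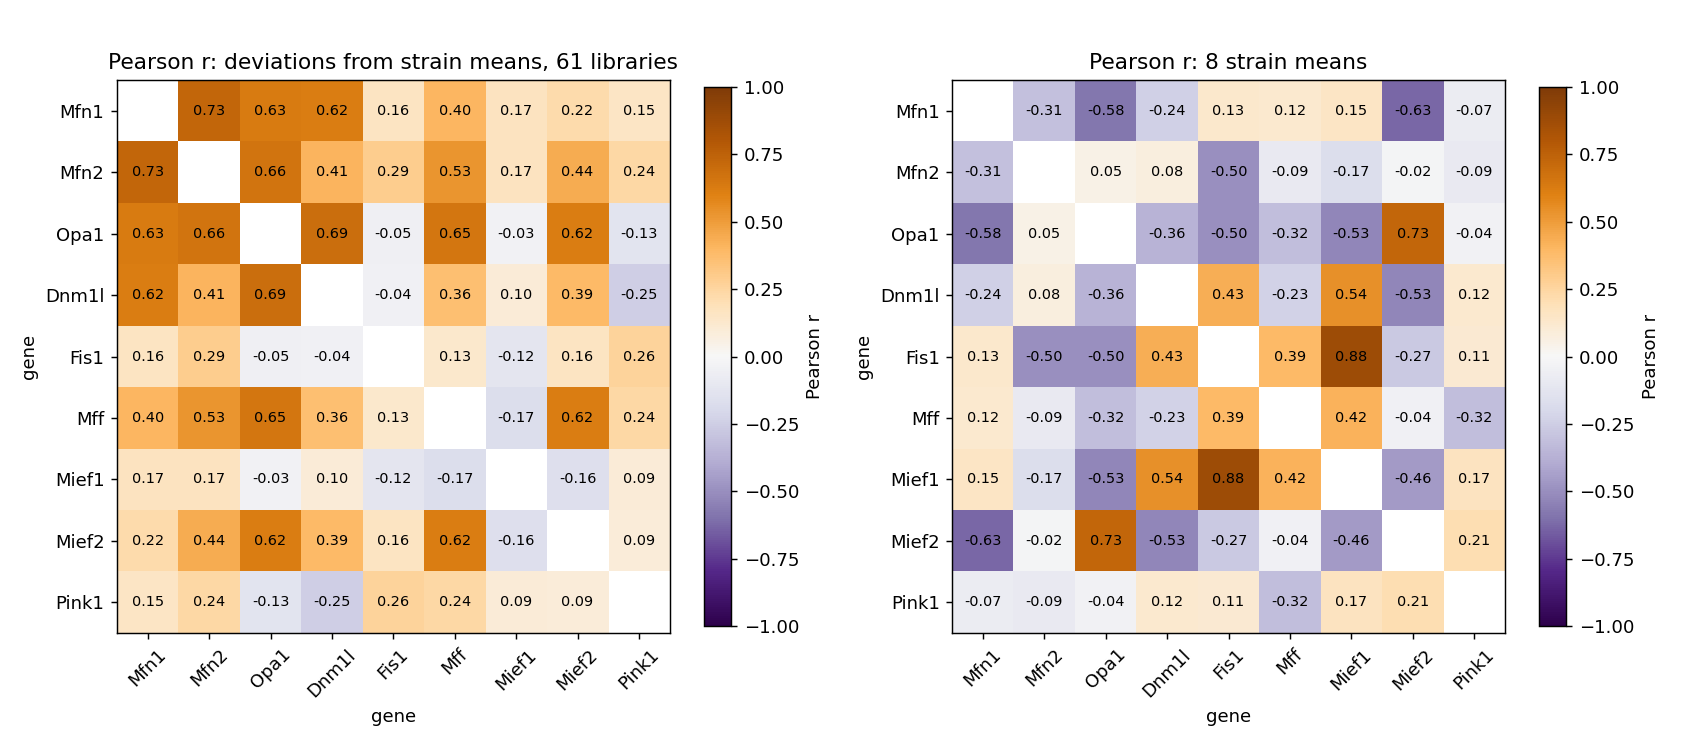
Pearson r between the 9 genes, from deviations of 61 libraries from their strain means (left) and from 8 strain means (right). On the left Mfn1, Mfn2, Opa1, Dnm1l, Mff and Mief2 form a positive block, from 0.22 to 0.73, and on the right Fis1 with Mief1 has the highest value, 0.88.

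Among 8886 genes with a mean of at least 5 CPM and an established symbol, those most like each member over the 61 libraries were of several kinds. They were chosen by r over all libraries, so a shared order of strains follows in part from the choice. Opa1 was closest to Dlat (r = 0.85), a subunit of pyruvate dehydrogenase, and Esrra (0.78), a nuclear receptor of mitochondrial genes, both of which also did not pass among strains (adjusted p = 0.161 and 0.255). Mfn1 was closest to Etfa (0.73), an electron carrier of fatty acid oxidation, and Gys1 (0.73), muscle glycogen synthase, both highest in Cast and lowest in AJ like Mfn1 itself. Mfn2 was closest to Ube3b (0.68), a ubiquitin ligase, and Pdpr (0.66), a regulator of pyruvate dehydrogenase phosphatase, and Dnm1l to Lyrm5 (0.66) and Tmem182 (0.63). Fis1 was closest to D8Ertd738e (0.80) and Puf60 (0.77), a splicing factor, and Mff to Rassf8 (0.77) and Dnajc11 (0.75), a partner of the cristae-organising complex. Mief1 was closest to Nploc4 (0.78), a cofactor of the Vcp unfoldase, and Tmem214 (0.78). Mief2 was closest to Nfic (0.89) and Mbd3 (0.88), a transcription factor and a chromatin protein, each highest in NZO and lowest in Cast. Pink1 was close to Pwp1 (0.79), which was highest in B6 and lowest in WSB.

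The genes around these 9 are given by list. Of 21 tested regulators of fusion and cristae, all 21 passed among strains, as did all 17 regulators of fission, 23 of 24 mitophagy genes and all 10 genes of mitochondrial transport, beside 85.5% of all genes. The median span over strains was 0.41 log2 for the fusion and cristae list, 0.60 for fission, 0.87 for mitophagy and 0.60 for transport, beside 0.91 over all genes. Mitochondrial biogenesis factors (15 of 17, median span 0.53) and 20 proteins of mitochondrial content (20 of 20, median span 0.40) were similar. Pld6 and Mtfr2 were too low to be tested.

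**Figure D5:**
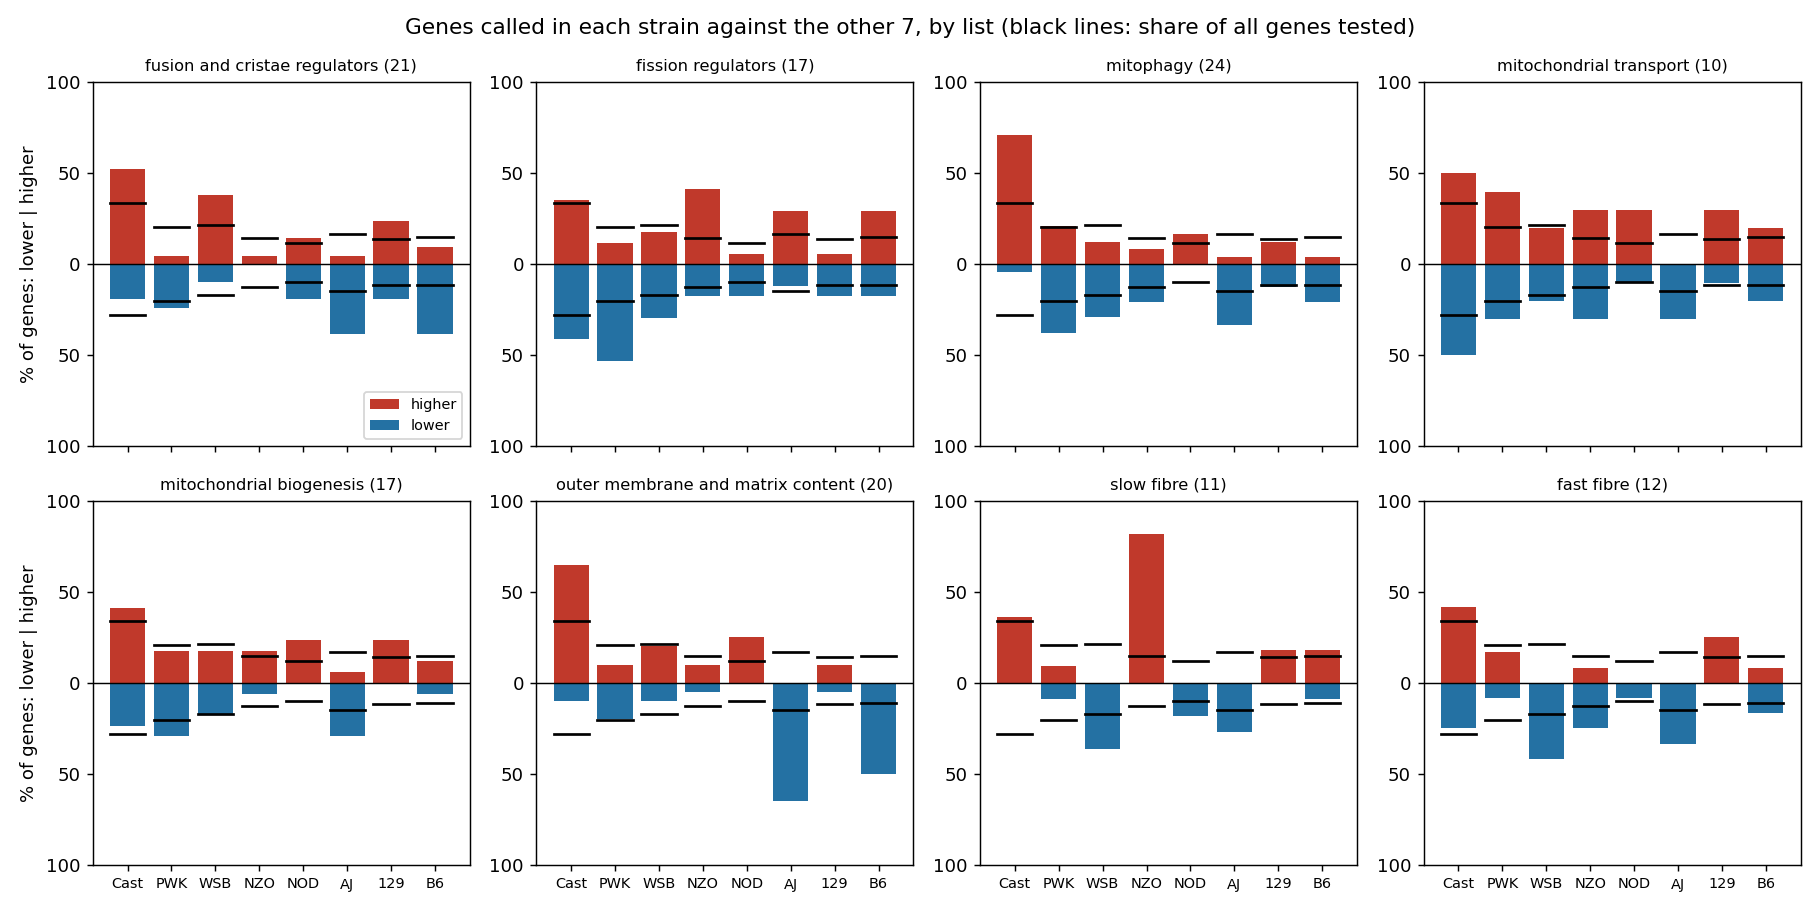
Percent of tested genes of each list that were higher (up) or lower (down) in each strain against the mean of the other 7 at an adjusted p under 0.05, with the number tested in each title. The mitophagy list in Cast is nearly all upward, and the content list is downward in AJ and B6.

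In Cast, 17 of 24 mitophagy genes were higher and 1 lower, beside 33.8% and 27.9% of all genes, with a median of 0.35 log2 against 0.04 over all genes. Gabarapl1, an autophagosome protein of the LC3 family, averaged 317 CPM in Cast and 55.3 CPM in the other 7 (2.55 ± 0.17 log2, SE; adjusted p = 4.89e-19). Nbr1, a cargo receptor of autophagy, averaged 290 CPM in Cast and 103 CPM in the other 7 (1.5 ± 0.07 log2, adjusted p = 2.92e-25). Usp15, a deubiquitinase that opposes Parkin, was the 1 that fell (-0.41 log2). Fusion and cristae regulators in Cast were higher in 11 of 21 and lower in 4, with Usp30, a mitochondrial deubiquitinase, at 0.86 log2, Phb2, an inner-membrane scaffold, at 0.58, Spg7, an inner-membrane protease, at -0.64, and Apoo, a cristae protein, at -2.10 log2 (15.9 CPM in Cast and 68.0 CPM in the other 7). Without libraries 1, 5 and 6 these were at 0.63, 0.48, -0.57 and -1.66 log2. Of the 10 transport genes all passed in Cast, 5 in each direction. Snph, syntaphilin, which anchors mitochondria in axons, averaged 77.6 CPM in Cast and 5.52 CPM in the other 7 (4.34 log2), while Rhot2 and Trak1, which link mitochondria to motors, were at -0.67 and -0.63 log2. Biogenesis factors were higher in 7 of 17 (Esrrb 0.86, Gabpa 0.61 log2) and lower in 4 (Tfb2m -0.35, Tfam -0.32 log2). Mitochondrial content genes were higher in 13 of 20 and lower in 2, the outer-membrane channels Vdac1 (-0.36 log2) and Vdac3 (-0.13 log2).

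The Cast libraries were unlike each other in mitophagy genes and in Mief2, so their values are given. Gabarapl1 had 716, 422 and 706 CPM in Cast libraries 1, 5 and 6, and 59.2 to 158 CPM in the other 4, against 32.9 to 95.8 CPM in the 54 libraries of the other strains. Bnip3, a mitophagy receptor, had 653, 841 and 1129 CPM in the same 3 libraries and 168 to 236 CPM in the other 4, against 111 to 205 CPM elsewhere. Nbr1 had 354, 406 and 474 CPM in those 3 and 176 to 236 CPM in the other 4, all above the highest value elsewhere, 118 CPM. Mief2 was lowest in the same libraries, at 29.1, 29.9 and 21.9 CPM, against 38.7 to 59.9 CPM in the other 4. Pink1 did not follow, with 456, 503 and 499 CPM in those 3 and 387 to 521 CPM in the other 4. Within strains, Mief2 and Gabarapl1 had r = -0.66 over 61 libraries and -0.16 over the 54 that are not Cast. The brown adipocyte sum was 92.0, 26.1 and 127 CPM in the 3 libraries and 29.2 to 185 CPM in the other 4. These 3 libraries were singled out after their values were seen. Without them, in edgeR's test, 14 of 24 mitophagy genes were higher in Cast, with Gabarapl1 at 0.79 log2 (adjusted p = 3.3e-07), Nbr1 at 0.95 log2 (adjusted p = 5.27e-27) and Usp15 at -0.20 log2 (adjusted p = 0.00675). The share of all genes passing in this fit is not given here, so its counts have no background beside them. Of the 9 genes 5 still passed in Cast, but not the same 5: Mfn1 and Pink1 no longer did, while Dnm1l (0.18 log2, adjusted p = 0.0413) and Mff (0.16 log2, adjusted p = 0.0016) did, both higher. The transport genes higher in Cast were then 3, the biogenesis factors 4 and the content genes lower 1, as Vdac3 no longer passed (adjusted p = 0.442), nor did it without Cast 5, 6 or 8 alone (up to 0.114). Gabpa was at 0.33, Esrrb at 0.57, Tfam at -0.14, Tfb2m at -0.58, Trak1 at -0.38, Rhot2 at -0.54 and Snph at 4.33 log2. In other strains, whose reference mean holds Cast, 4 fission regulators were then higher in PWK and 2 fusion and cristae regulators higher in AJ.

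Mitochondrial content genes that passed were lower in AJ and B6. In AJ 13 of 20 were lower and 0 higher, beside 14.9% lower over all genes, with Hspe1, a matrix chaperonin, at -0.46 log2 (28.8 CPM in AJ and 40.1 CPM in the other 7) and Vdac2 at -0.24 log2. In B6 10 of 20 were lower and 0 higher, beside 11.2% lower over all genes, with Cox4i1, a subunit of cytochrome oxidase, at -0.30 log2 (335 CPM in B6 and 414 CPM in the other 7) and Vdac2 at -0.27 log2. The number higher in B6 was 2 without B6 library 5, 1 without B6 library 1, and 2 among genes of at least 5 CPM, where 1 was higher in AJ. Fusion and cristae regulators also passed mostly downward in these strains, 8 lower and 1 higher of 21 in AJ (Phb2 -0.23, Mul1 -0.20, Spg7 0.18 log2) and 8 lower and 2 higher in B6 (Usp30 -0.30, Parl -0.21, Fam73a 0.33, Chchd6 0.37 log2). Chchd6 in B6 did not pass without B6 library 2, 4, 6 or 7 (edgeR adjusted p up to 0.12), which left 1 higher, and the number higher in AJ was 2 to 3 under several alternatives. Mfn2 was higher in both. The mitofusin Mfn1 was lower in AJ and higher in B6.

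In PWK 9 of 17 fission regulators were lower and 2 higher, beside 20.3% lower and 20.6% higher over all genes. Gdap1, an outer-membrane protein that promotes fission, averaged 2.87 CPM in PWK and 14.8 CPM in the other 7 (-2.26 log2, adjusted p = 1.13e-07). Mtfr1, a mitochondrial fission regulator, was at -0.48 log2, while Spire1, an actin nucleator of fission, was at 0.67 and Akap1, an anchor of protein kinase A on the outer membrane, at 0.22 log2. In NZO, where Mief2 was highest, 7 of 17 fission regulators were higher and 3 lower, beside 14.6% and 12.7%. They included Inf2, a formin that acts with Spire1 (0.42 log2), and Mtfr1l (0.26 log2) on the higher side, and Spire1 (-0.35) and Cdk5 (-0.22 log2), a kinase of Drp1, on the lower. Without NZO library 1, 4 or 5 or WSB library 1, or with markers of other cells as covariates, 4 were higher. The lower count was 1 without NZO library 1 or with those covariates, and Cdk5 did not pass in either (edgeR adjusted p up to 0.0641). Without the 13 libraries high in brown adipocyte markers, Cdk5 in NZO was at -0.19 log2. NZO libraries were also higher in 9 of 11 slow-fibre genes, with Atp2a2, the slow calcium pump, at 1197 CPM in NZO and 547 CPM in the other 7 (1.14 log2). With the ratio of slow to fast fibre markers as a covariate Mief2 in NZO was at 0.47 log2 (edgeR adjusted p = 6.48e-05), against 0.39 log2 without it.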

How the data were processed

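Per the labels' protocols, RNA of pulverised frozen skeletal muscle was extracted, ERCC spike-ins were added, polyadenylated RNA was selected and libraries were built with the KAPA mRNA HyperPrep kit. The table of expected counts that the authors deposited is unscaled, with 80.4% of its values whole. A second deposited table holds log2-scale values after variance stabilisation by the authors. Per the submitters' processing notes, the build was GRCm38 and DESeq2 was used. Which aligner and counter were used, and whether strand was, is not given in the sources used here. Whether reads of all strains mapped equally well was not tested.

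Strains were read from the sample titles. Expected counts were rounded, filtered with filterByExpr and scaled by TMM, and 1 edgeR quasi-likelihood fit (edgeR 4.0.16, R 4.3.3) held all 61 libraries with strain as the factor and 53 residual degrees of freedom. Comparisons were all 8 strains, each strain against the other 7 with equal weights, and pairs of strains. P-values were adjusted by Benjamini-Hochberg over the 16682 genes within each comparison, with a threshold of 0.05. CPM used TMM-scaled library sizes. SE was taken from the F statistic, as the size of the log2 difference over the root of F. Correlations used log2 CPM with a prior count of 2. Likeness to a member was Pearson r over all libraries, and the 2 genes with the highest r were named, except 1 that is not reported here. From each list described, up to 2 genes in each direction with the lowest adjusted p were named. The members and lists were chosen with earlier results of these data known. Current symbols absent from the table were matched through RefSeq gene IDs (Fam73a is Miga1). Near-identical copies were searched with blastn 2.17.0 (95% identity or more, 200 bases or more, covering 50% of the shorter sequence). The fit was tested on simulated data. Alternatives included DESeq2 1.42.0 and limma 3.58.1.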

Additional observations from a re-analysis of the deposited data

Results flagged for a closer look

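In 5 of 72 groups of a gene in a strain, 1 library lay far from the rest of its strain by Dixon's criterion at the 95% level, which chance alone meets in about 1 of 20 groups. NZO library 8 was the lowest of its strain in 2 genes, with 129.6 CPM of Mfn1 (nearest NZO library 166 CPM) and 120.2 CPM of Opa1 (nearest 153 CPM). B6 library 5, the one with 46.3% of its counts in a single gene, was lowest in Fis1, with 31.6 CPM (nearest 39.8 CPM). The highest Fis1 library of 129, number 4, had 55.0 CPM (nearest 46.2 CPM). NOD library 3 was lowest in Pink1, with 485 CPM (nearest 505 CPM). The causes were not tested.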

How the results depend on the processing

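No difference that passed changed direction under any alternative, among those followed. These were the 9 genes against the other 7 strains and between neighbours, and the list genes named by lowest adjusted p. Some that had not passed did change. Without Cast libraries 1, 5 and 6, Cast minus WSB in Mief2 was 0.20 log2, in place of -0.12. Opa1 in Cast against the other 7 was then 0.015 log2, in place of -0.11. The number of genes differing among the 8 strains was 14256, and 8506 when only genes averaging at least 5 CPM were tested, a filter that leaves fewer genes by construction. The NZO count was 2 in place of 1 under DESeq2's size factors, its test, the 5 CPM filter, limma on the deposited log2 values, and the GT20 number, other cell type markers, slow-to-fast fibre ratio or Xist minus Ddx3y as covariates. The gene added was Opa1, higher, with the fibre ratio and Mfn1, lower, under each of the others. The ORSAM number of the labels as a covariate left 0 genes in 129, in place of 2. With other cell type markers (the brown adipocyte, hepatocyte and lymphocyte sums) as covariates, 2 genes passed in WSB, 1 in 129 and 3 in B6, in place of 5, 2 and 5. All genes differing in WSB then numbered 2812, in place of 6391. Dnm1l passed among strains in that fit (span 0.33 log2, edgeR adjusted p = 0.0427), and 2 steps between neighbouring strains passed in place of 4. The 13 libraries left out as high in these markers were all so in the brown adipocyte sum. For PWK and 129, the number of all genes passing without them is not given here. Without the 13 libraries high in those markers, 0 passed in WSB, 2 in PWK, 1 in 129, and 1 step between neighbours. Without the 3 Cast libraries highest in Gabarapl1, chosen after seeing the data, 7 steps passed. Under every alternative the steps were the pairs of the main order, which need not be neighbours in that fit. Without those 3 libraries Mff averaged 82.36 CPM in Cast, above PWK at 80.19 CPM. The causes were not tested. With 1 library left out, 7 to 8 of the 9 genes differed among strains and 14103 to 14468 of all genes. The member and strain comparisons that passed numbered 27 to 33 in all, 5 to 7 in Cast, 3 to 5 in PWK, 4 to 5 in WSB and in B6, 1 to 2 in NZO, 2 to 3 in NOD, 3 to 4 in AJ and 0 to 3 in 129, and the steps between neighbours 3 to 6. Replicate numbers did not pair the libraries: over 186 same-numbered pairs the median correlation of deviations was 0.061, and 13 of 61 libraries correlated best with their own number. With the replicate block, 7 genes differed among strains and 27 of 72 comparisons passed, without Mfn1 in PWK (adjusted p = 0.0506) and Fis1 in WSB (adjusted p = 0.0605). The lowest count of a member in a library was 284. Sex, batch and the muscle dissected are unlabelled, and batch could not be examined.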
